A study of Mus musculus with 11 samples.

Results

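Cells that receive a death signal or lose a survival signal decide their fate largely through the BCL2 family. Pro-survival members (BCL2, BCL-XL, MCL1) hold the pore-forming effectors BAK and BAX in check on the outer membrane of mitochondria. The BH3-only members (BIM, BMF, BID, BAD) block the pro-survival proteins or activate the effectors. TRAIL, a ligand of the TNF family, starts death from outside by binding a death receptor that activates caspase-8, and BID carries that signal to mitochondria.

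The 10 genes described here are the TRAIL ligand gene Tnfsf10 and its receptor gene Tnfrsf10b, the pro-survival genes Bcl2, Bcl2l1 (BCL-XL) and Mcl1, the effector gene Bak1, and the BH3-only genes Bcl2l11 (BIM), Bmf, Bid and Bad. They were chosen with earlier results of these data known and taken by symbol from the 23284 genes of the count tables. All 10 were found, and all 10 passed the filter on low counts, as did 13343 genes in all. The counts come from 266-6, a mouse pancreatic acinar line. Cells were reverse-transfected with siRNAs against Arid1a (25 nM), which encodes a subunit of the BAF chromatin remodelling complex, or with the non-targeting siRNA NT5, for 48 h. They were starved of serum overnight and then given EGF (40 ng/ml) or the vehicle 0.1% BSA for 8 h. The groups are siArid1a_EGF (Arid1a siRNAs and EGF, n = 3), siArid1a (Arid1a siRNAs and vehicle, n = 3), siCtrl_EGF (control siRNA and EGF, n = 3) and siCtrl (control siRNA and vehicle, n = 2). All groups share the transfection and the serum starvation. The knockdown is transient and partial, the cells are of 1 line, and nothing in the labels ties the replicates to separate cultures, so the p-values cover just the spread among these libraries, which may be technical.

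Libraries held 10279763 to 19773007 counted reads. Arid1a itself averaged 140 ± 15.2 CPM in siArid1a_EGF, 145 ± 15.9 CPM in siArid1a, 291 ± 24.1 CPM in siCtrl_EGF and 346 ± 76.6 CPM in siCtrl (SD), and no library with Arid1a siRNAs reached one with control siRNA. Of 20 acinar markers, 19 were above 1 CPM in at least 1 library and Amy2a5 had no read. Of 13 immune markers, Cd68 and Cd14 passed 1 CPM, while Cd3e and Ncr1 had no read. The immune markers summed to 10.96 to 11.3 CPM in siArid1a_EGF, 7.57 to 9.89 in siArid1a, 9.13 to 10.4 in siCtrl_EGF and 6.52 to 6.73 in siCtrl. Of 10 fibroblast markers, 9 were above 1 CPM in at least 1 library and 6 by group mean in each group, and Lum had no read. The fibroblast markers summed to 322 to 328, 304 to 338, 305 to 335 and 283 to 290 CPM in the same order. Of 8 endothelial markers, 2 were above 1 CPM in at least 1 library, and Cdh5 and Tie1 had no read. The endothelial markers summed to 48.2 to 55.6, 42.9 to 51.3, 38.9 to 46.9 and 44.8 to 46.3 CPM. Each of these 2 sums rested on 1 gene: Pdgfrb averaged 310.4, 309, 306 and 271 CPM and Tek 48.6, 44.5, 40.9 and 43.3 CPM in the same order, while no other fibroblast marker passed 6.23 CPM and no other endothelial marker 2.25 CPM in any library. The immune and fibroblast sums were lowest in siCtrl and the endothelial sum lowest in siCtrl_EGF, and their part in the results was not tested.

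Levels are in CPM, the count scaled to the TMM-adjusted size of the library. Changes are edgeR log2 changes ± standard error, with p adjusted by Benjamini-Hochberg over all 13343 genes. In bulk RNA, fewer cells of a type and less RNA per cell cannot be told apart.

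With the Arid1a siRNAs and no EGF, 5 members rose (Tnfsf10, Tnfrsf10b, Bcl2l1, Bak1, Bad) and 2 fell (Bcl2, Bcl2l11), where 18.8% of all genes tested rose and 20.1% fell (38.9% in either direction). With EGF present, the same 5 rose and Bcl2 and Bid fell, against 23.7% of all genes that rose and 23.2% that fell (46.9% in either direction). EGF after the control siRNA raised 3 members (Tnfrsf10b, Mcl1, Bid) and lowered 1 (Bcl2l11), against 16.8% and 18.8% of all genes (35.6%). EGF after the Arid1a siRNAs raised and lowered the same 4, against 13% and 10.4% (23.4%). The 4 of 10 called for EGF with control siRNA is thus a share near that of all genes. The median size of the log2 change, whatever its sign, under the Arid1a siRNAs was 0.52 over the members and 0.23 over all genes in vehicle, and 0.47 over the members and 0.25 over all genes with EGF. For EGF it was 0.23 over the members and 0.22 over all genes with control siRNA, and 0.16 over both with Arid1a siRNAs. The members were chosen with earlier results of these data known, so their shares and sizes beside those of all genes are description only. Comparisons that share a group of libraries are not independent of each other.

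The libraries of the compared groups did not overlap for 5 members above and 3 below with Arid1a siRNAs and no EGF, against 26.8% and 27.9% of all genes (54.7% in either direction). With EGF present 5 members lay apart above and 2 below, against 28.8% in each direction (57.6%). For EGF after Arid1a siRNAs the numbers were 3 and 1, against 19.7% and 19% (38.7%). For EGF after control siRNA they were 4 and 3, against 25.7% and 29.9% (55.5%).

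**Figure D1:**
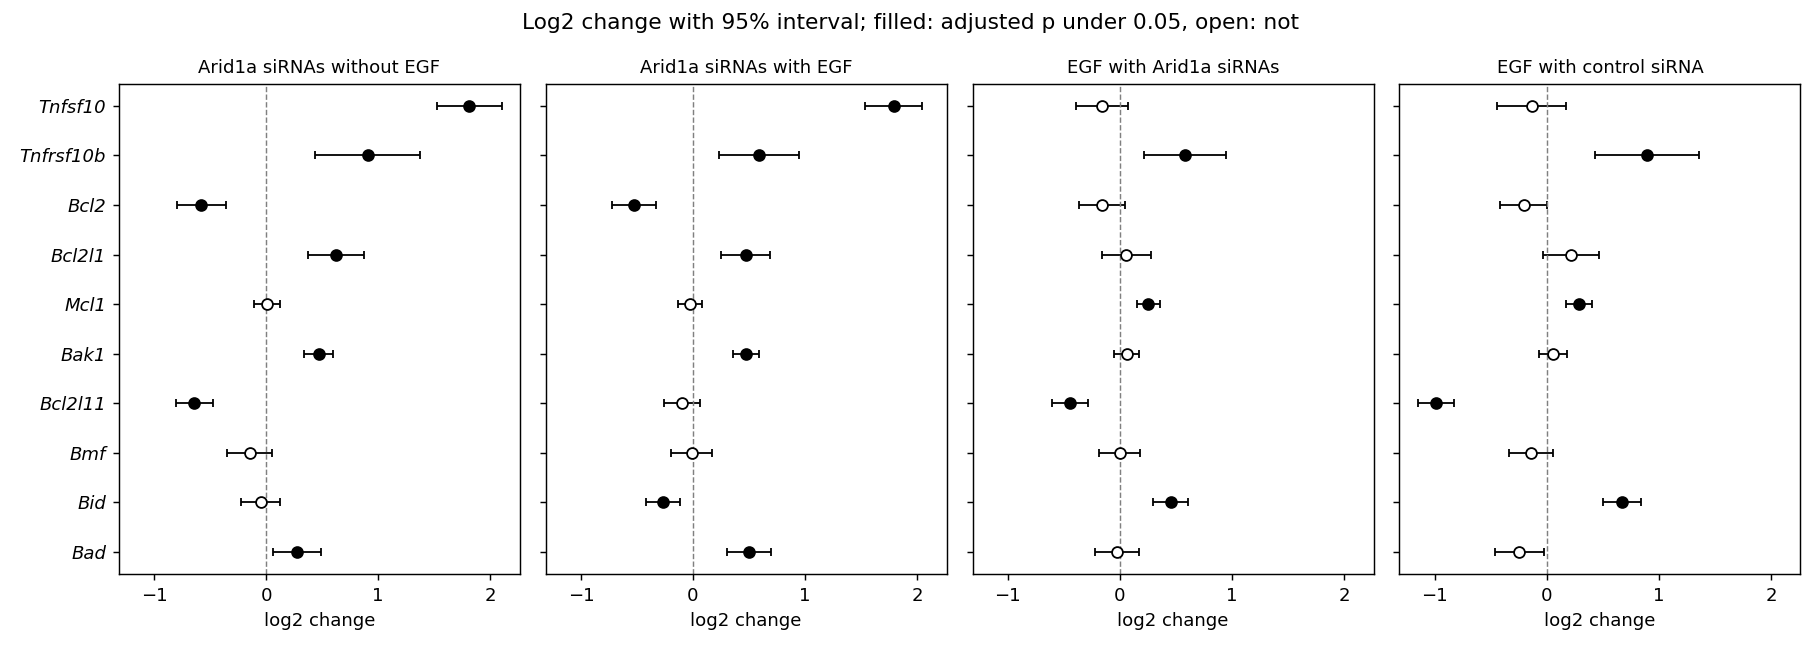
Log2 change of each of the 10 genes (x axis) in the 4 comparisons, with its 95% interval as a bar. Filled points passed the adjusted p of 0.05 and open points did not. Tnfsf10 lies at 1.81 and 1.79 in the 2 comparisons of Arid1a siRNAs, and Bcl2l11 at -0.99 for EGF with control siRNA.

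Tnfsf10, the ligand gene, moved the furthest. Its level was 46.3, 36.9 and 39.5 CPM in siArid1a_EGF, 45.7, 49.7 and 41.2 CPM in siArid1a, 12.2, 12.3 and 10.9 CPM in siCtrl_EGF, and 11.3 and 14.97 CPM in siCtrl. Every library with Arid1a siRNAs lay far above every library with control siRNA, and EGF left the groups overlapping within each siRNA. The gene rose 3.51-fold with the Arid1a siRNAs in vehicle (log2 1.81 ± 0.13, edgeR adjusted p = 2.33e-07). It rose 3.46-fold with EGF present (log2 1.79 ± 0.12, edgeR adjusted p = 4.46e-08). The EGF changes of -0.16 ± 0.11 with Arid1a siRNAs and -0.13 ± 0.14 with control siRNA did not pass. Their difference was -0.02, with a 95% interval from -0.41 to 0.36. The 250 bases before the RefSeq start of Tnfsf10 (chr3:27316827-27317076, plus strand, GRCm38.p6) are shown because this gene changed most.

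Tnfsf10: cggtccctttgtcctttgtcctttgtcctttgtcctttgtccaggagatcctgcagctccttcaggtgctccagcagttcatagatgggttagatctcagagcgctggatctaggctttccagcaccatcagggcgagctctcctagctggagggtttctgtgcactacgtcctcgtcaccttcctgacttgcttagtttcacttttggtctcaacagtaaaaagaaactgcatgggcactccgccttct

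The window was searched on both strands for 4 motifs, which would be in capitals: the ISRE core, at which interferon-activated factors bind, the GAS element TTCNNNGAA, the forkhead motif GTAAACA and the AP-1 motif TGANTCA. No exact match to any of them is in it. Only exact matches were counted. The window does hold stretches that come close to the ISRE core without matching it. How often such near matches occur over all windows was not counted, so no conclusion on an interferon-type element is drawn. The ISRE core is in 2.98% of 32851 such windows over all genes, GAS in 7.02%, the forkhead motif in 3.17% and AP-1 in 6.75%. These letters may stand elsewhere around the gene. Interferon response genes, a list in which Tnfsf10 was not placed, were higher with the Arid1a siRNAs for 25 of 29 tested, without EGF and with it, and lower with EGF for 15 of 29 with either siRNA. Over all genes tested, 18.8% were higher with the Arid1a siRNAs without EGF and 23.7% with it. EGF lowered 10.4% of all genes after Arid1a siRNAs and 18.8% after control siRNA. The interferon list was written with its pattern already known and adds no support.

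Over the 11 libraries, the genes closest to Tnfsf10 by the Pearson correlation of log2 CPM, among 9449 genes (mean log2 CPM of 3 or more, clone-type symbols passed over), were Phactr1 (0.99), Timeless (0.99), Ptk7 (0.99), Mmgt1 (0.99) and Znf512b (0.99). The libraries fall into 2 sets by siRNA, which the genes share, so r is high for any gene that separates those sets.

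**Figure D2:**
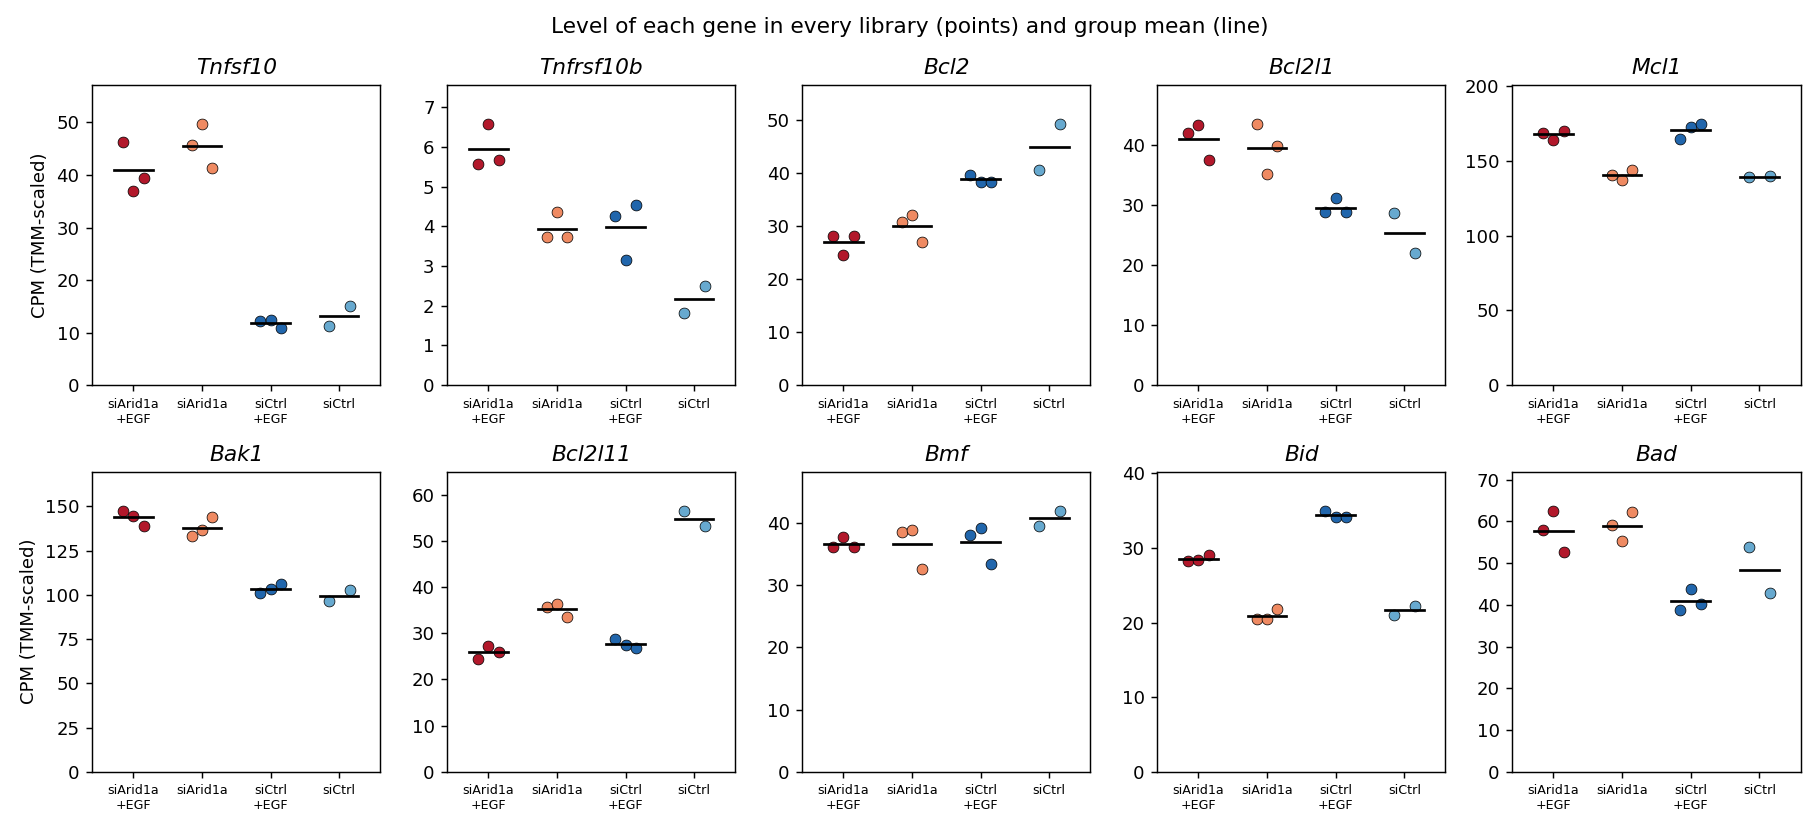
CPM (TMM-scaled, y axis from 0) of each of the 10 genes in every library (points) of the 4 groups, with the group mean as a line. Tnfsf10 stands at 36.9 to 49.7 CPM in the 6 libraries with Arid1a siRNAs and at 10.9 to 14.97 CPM in the other 5, while Mcl1 and Bid separate by EGF.

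Tnfrsf10b, the receptor gene of TRAIL in mice, was the lowest of the 10, with 35 to 90 reads per library. The lowest count of 35 has an exact Poisson 95% interval of 24.4 to 48.7, which covers counting error only. Its level was 5.56, 6.58 and 5.69 CPM in siArid1a_EGF, 3.73, 4.36 and 3.74 CPM in siArid1a, 4.27, 3.15 and 4.54 CPM in siCtrl_EGF, and 1.82 and 2.51 CPM in siCtrl. The group with both treatments was highest and the group with neither lowest, and the 2 groups with 1 treatment overlapped. The Arid1a siRNAs raised it 1.87-fold in vehicle (log2 0.91 ± 0.22, edgeR adjusted p = 0.00459) and 1.51-fold with EGF (log2 0.59 ± 0.17, edgeR adjusted p = 0.00992). EGF raised it 1.49-fold with Arid1a siRNAs (log2 0.58 ± 0.17, edgeR adjusted p = 0.0244) and 1.86-fold with control siRNA (log2 0.89 ± 0.22, edgeR adjusted p = 0.00484). The difference between the EGF responses was -0.32, with a 95% interval from -0.91 to 0.28.

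All of these 4 calls on Tnfrsf10b were lost when some libraries were left out. Without siCtrl replicate 1, the change was 0.67 for Arid1a siRNAs without EGF and 0.65 for EGF with control siRNA (edgeR adjusted p = 0.0792 and 0.0935). Without siCtrl_EGF replicate 2, it was 0.43 for Arid1a siRNAs with EGF (edgeR adjusted p = 0.0561). For EGF with Arid1a siRNAs the call was lost without siArid1a replicate 1 (0.0780) or 3 (0.0652), siArid1a_EGF replicate 2 (0.0868) or 3 (0.0519), and with DESeq2 (adjusted p = 0.0521), at changes of 0.50 to 0.60. Genes closest to Tnfrsf10b in pattern over the 11 libraries were Vipr1 (r = 0.98), Tmem123 (0.97), Ero1l (0.97), Ankrd13b (0.96) and Zfp239 (0.96).

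The 3 pro-survival genes went 3 ways. Bcl2, the founding member, lay at 28.1, 24.6 and 28.02 CPM in siArid1a_EGF, 30.8, 32.1 and 26.9 CPM in siArid1a, 39.6, 38.3 and 38.4 CPM in siCtrl_EGF, and 40.6 and 49.2 CPM in siCtrl. All libraries with Arid1a siRNAs were below all with control siRNA. It fell 1.49-fold with the Arid1a siRNAs in vehicle (log2 -0.58 ± 0.10, edgeR adjusted p = 0.000431) and 1.44-fold with EGF (log2 -0.53 ± 0.09, edgeR adjusted p = 0.000321). EGF gave -0.16 ± 0.10 with Arid1a siRNAs and -0.21 ± 0.10 with control siRNA (adjusted p of 0.260 and 0.119 in edgeR). The change for EGF with control siRNA was -0.35 and passed when siCtrl replicate 1 was left out (edgeR adjusted p = 0.0288), but was -0.065 when replicate 2 was (0.690). In GENCODE vM21 (GRCm38), 6.09% of the exonic bases of Bcl2 overlap an antisense gene, D630008O14Rik, which was not analysed here.

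Bcl2l1, whose long product BCL-XL blocks BAK and BAX, mirrored Bcl2. Its level was 41.9, 43.3 and 37.6 CPM in siArid1a_EGF, 43.5, 35.2 and 39.8 CPM in siArid1a, 28.8, 31.1 and 28.7 CPM in siCtrl_EGF, and 28.6 and 21.99 CPM in siCtrl. Again the siRNAs set the libraries apart, in the opposite direction. It rose 1.55-fold with the Arid1a siRNAs in vehicle (log2 0.63 ± 0.12, edgeR adjusted p = 0.000719) and 1.39-fold with EGF (log2 0.47 ± 0.10, edgeR adjusted p = 0.00171). EGF gave 0.06 ± 0.10 with Arid1a siRNAs and 0.22 ± 0.12 with control siRNA (adjusted p of 0.736 and 0.171 in edgeR). The second change turned on the siCtrl libraries: it was 0.42 without replicate 1, where it passed (edgeR adjusted p = 0.0282), and 0.050 without replicate 2 (0.794). Counts per gene do not separate the splice forms of Bcl2l1, which differ in their effect on survival.

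Mcl1, which encodes a short-lived pro-survival protein, separated the libraries by EGF. It stood at 169, 164 and 169.9 CPM in siArid1a_EGF, 140.4, 137 and 144 CPM in siArid1a, 164, 173 and 175 CPM in siCtrl_EGF, and 139 and 139.5 CPM in siCtrl. The 6 EGF-treated libraries were all above the 5 others. EGF raised Mcl1 1.19-fold with Arid1a siRNAs (log2 0.26 ± 0.05, edgeR adjusted p = 0.00158) and 1.22-fold with control siRNA (log2 0.29 ± 0.05, edgeR adjusted p = 0.000754). For the Arid1a siRNAs, the 95% interval of the log2 change ran from -0.11 to 0.13 without EGF and from -0.13 to 0.08 with EGF.

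Levels of different genes are comparable only per transcript length, for which the deposited FPKM values of the 3 groups with matched columns were used (n = 3 each). Among the pro-survival members, Mcl1 had the highest FPKM, with 45.9 ± 0.88 in siArid1a_EGF, 38.6 ± 1.04 in siArid1a and 46.8 ± 1.37 in siCtrl_EGF (SD). Bcl2l1 followed at 16.9 ± 1.14, 16.4 ± 1.71 and 12.2 ± 0.49 FPKM in the same order, and Bcl2 was lowest at 4.21 ± 0.33, 4.33 ± 0.36 and 6.16 ± 0.06 FPKM. Of the summed FPKM of these 3 genes, Bcl2l1 made up 23.5% to 26.7% in siArid1a_EGF, 25.7% to 29.4% in siArid1a and 18.1% to 19.3% in siCtrl_EGF. The share of Bcl2 was 5.77% to 6.55%, 6.52% to 8.09% and 9.24% to 9.78%. So the column ranges of siArid1a_EGF and siCtrl_EGF did not overlap for either share.

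**Figure D3:**
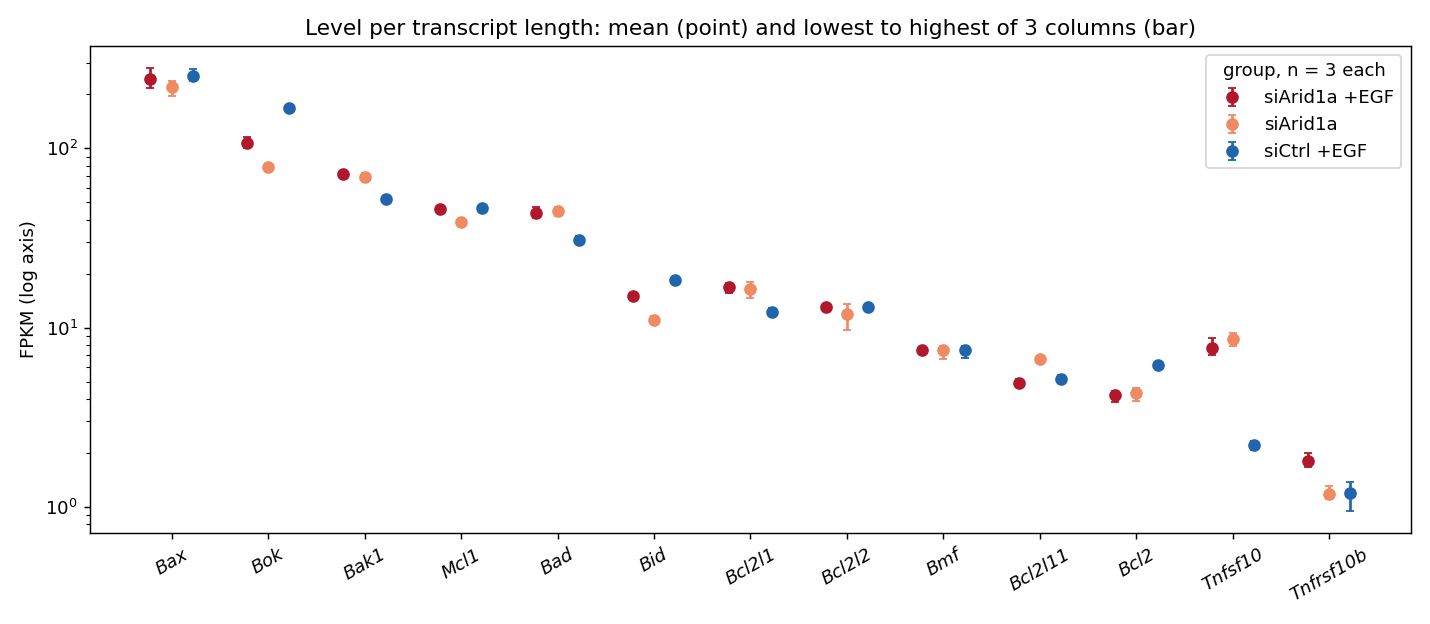
FPKM (log axis) of the 10 genes and of Bax, Bok and Bcl2l2, as the mean of the 3 deposited columns of a group (point) with their lowest and highest value (bar). The control group without EGF is absent because its columns could not be matched to libraries. Bax and Bok lie above Bak1, and Tnfrsf10b is lowest at 1.19 to 1.80 FPKM.

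Bak1, the effector among the members, rose with the Arid1a siRNAs. Its level was 147, 145 and 139 CPM in siArid1a_EGF, 133, 137 and 144 CPM in siArid1a, 101, 103 and 106 CPM in siCtrl_EGF, and 96.7 and 103 CPM in siCtrl. All 6 libraries with Arid1a siRNAs were above the other 5. The rise was 1.39-fold in vehicle (log2 0.47 ± 0.06, edgeR adjusted p = 3.18e-05) and 1.39-fold with EGF (log2 0.47 ± 0.05, edgeR adjusted p = 5.95e-06). EGF changed it by 0.06 ± 0.05 with Arid1a siRNAs and 0.06 ± 0.06 with control siRNA, neither of which passed. In GENCODE vM21 (GRCm38), 25.5% of the exonic bases of Bak1 overlap Ggnbp1 on the other strand. The library kit does not mark strand, and the strand setting of the counting is not given. Ggnbp1 averaged 0.27 to 0.98 CPM in the 4 groups.

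Bcl2l11 encodes BIM, a BH3-only protein that binds all pro-survival members and that ERK signalling is known to hold down. It lay at 24.5, 27.2 and 25.8 CPM in siArid1a_EGF, 35.6, 36.4 and 33.5 CPM in siArid1a, 28.8, 27.5 and 26.7 CPM in siCtrl_EGF, and 56.5 and 53.1 CPM in siCtrl. The control cells without EGF stood highest and the cells with Arid1a siRNAs alone came next, while the 2 EGF-treated groups overlapped at the bottom. EGF lowered it 1.36-fold with Arid1a siRNAs (log2 -0.45 ± 0.07, edgeR adjusted p = 0.000493) and 1.98-fold with control siRNA (log2 -0.99 ± 0.08, edgeR adjusted p = 2.50e-07). The Arid1a siRNAs lowered it 1.56-fold without EGF (log2 -0.64 ± 0.08, edgeR adjusted p = 1.66e-05). With EGF, their change of -0.10 ± 0.07 did not pass (edgeR adjusted p = 0.300).

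The EGF response of Bcl2l11 differed between the siRNAs. The log2 difference was 0.54 ± 0.11 (95% interval 0.32 to 0.77, edgeR adjusted p = 0.0241), so the fall with EGF was smaller after the Arid1a siRNAs. Bcl2l11 was the only member called in this test, which called 126 genes (0.944% of those tested, 0.562% higher and 0.382% lower). The call is fragile. The edgeR adjusted p was 0.104 without siCtrl replicate 1, and the call was also lost without siCtrl_EGF replicate 1 (0.0586), 2 (0.0586) or 3 (0.0774), siArid1a replicate 1 (0.0641), and siArid1a_EGF replicate 2 (0.0651) or 3 (0.0698). The difference itself moved little, between 0.50 and 0.57 over those fits.

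RefSeq gives 2 starts for Bcl2l11. The 250 bases before the first (chr2:128125788-128126037, plus strand, GRCm38.p6) are shown because this was the only one of the 15 windows of the members with a match to any of the 4 motifs above. Capitals mark the forkhead motif GTAAACA, 227 to 221 bases before the start, at which FOXO factors bind.

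Bcl2l11: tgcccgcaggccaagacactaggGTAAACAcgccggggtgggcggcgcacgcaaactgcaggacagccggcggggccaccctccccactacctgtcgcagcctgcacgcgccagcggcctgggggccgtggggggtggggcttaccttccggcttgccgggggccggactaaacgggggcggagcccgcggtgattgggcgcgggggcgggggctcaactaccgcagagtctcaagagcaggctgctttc

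Windows were found for 9 of the 10 members, all but Tnfrsf10b. This window holds 72.0% G and C, the window of Tnfsf10 51.6%. A match is a description of these letters, not of a bound site.

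Bmf, a BH3-only gene linked to loss of attachment, was the flattest member. All 11 libraries held it at 32.5 to 41.9 CPM, and it passed no test. Its level was 36.1, 37.7 and 36.1 CPM in siArid1a_EGF, 38.5, 38.9 and 32.5 CPM in siArid1a, 38.1, 39.2 and 33.4 CPM in siCtrl_EGF, and 39.5 and 41.9 CPM in siCtrl. Both control libraries without EGF were above all others, yet the log2 changes were -0.15 ± 0.09 for Arid1a siRNAs and -0.14 ± 0.09 for EGF (edgeR adjusted p = 0.231 and 0.264). With EGF the siRNAs gave -0.01, with a 95% interval from -0.19 to 0.17.

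Bid, which caspase-8 cleaves to link death receptors to mitochondria, followed EGF. It stood at 28.3, 28.4 and 29.0 CPM in siArid1a_EGF, 20.4, 20.5 and 21.8 CPM in siArid1a, 35.0, 34.1 and 34.1 CPM in siCtrl_EGF, and 21.0 and 22.3 CPM in siCtrl. The 2 groups without EGF overlapped, and of the 2 with EGF the one with Arid1a siRNAs was lower in every library. EGF raised Bid 1.37-fold with Arid1a siRNAs (log2 0.45 ± 0.07, edgeR adjusted p = 0.000397) and 1.59-fold with control siRNA (log2 0.67 ± 0.08, edgeR adjusted p = 1.26e-05). The Arid1a siRNAs lowered it 1.204-fold with EGF (log2 -0.27 ± 0.07, edgeR adjusted p = 0.00536), and gave -0.05 ± 0.08 without EGF (edgeR adjusted p = 0.677). The difference between the EGF responses was -0.22 (95% interval -0.45 to 0.01, edgeR adjusted p = 0.540) and did not pass. In GENCODE vM21, 17.7% of the exonic bases of Bid overlap Bcl2l13, a further family gene on the other strand. Bcl2l13 changed by 0.08 ± 0.07 for EGF with control siRNA, which did not pass, and fell by 0.35 ± 0.07 on the log2 scale for Arid1a siRNAs with EGF (edgeR adjusted p = 0.000634). Its part in the change of Bid was not tested.

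Bad, whose product is kept inactive by phosphorylation in cells with survival signals, was higher with the Arid1a siRNAs. Its level was 58.0, 62.5 and 52.7 CPM in siArid1a_EGF, 59.0, 55.3 and 62.3 CPM in siArid1a, 38.7, 43.9 and 40.1 CPM in siCtrl_EGF, and 53.8 and 42.9 CPM in siCtrl. The 2 siCtrl libraries differed by about as much as the group means did. With EGF, the siRNAs raised Bad 1.41-fold (log2 0.50 ± 0.09, edgeR adjusted p = 0.000483). Without EGF the rise was 1.21-fold (log2 0.28 ± 0.10, edgeR adjusted p = 0.0437), and it shrank to 0.13 without siCtrl replicate 2 (edgeR adjusted p = 0.388). That call was also lost without siCtrl_EGF replicate 1 (0.0527) or 3 (0.0572), siArid1a replicate 1 (0.0672) or 3 (0.112) or siArid1a_EGF replicate 1 (0.0569), and in the fit of only the groups compared (0.0728). EGF gave -0.02 ± 0.09 with Arid1a siRNAs and -0.25 ± 0.10 with control siRNA (adjusted p of 0.886 and 0.0746 in edgeR). The second change passed without siCtrl replicate 2 (log2 -0.39, edgeR adjusted p = 0.0109) and was -0.074 without replicate 1 (0.674). Bad shares 20.5% of its exonic bases with Gpr137 on the other strand, which gave -0.08 ± 0.09 for Arid1a siRNAs without EGF, 0.09 ± 0.08 with EGF (neither passed) and fell by 0.29 ± 0.09 for EGF with control siRNA (edgeR adjusted p = 0.0216).

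Some members varied together within groups. Deviations from the group means, over the 11 libraries, correlated at 0.88 between Bcl2l1 and Bad, 0.87 between Tnfsf10 and Bcl2, and -0.86 between Bcl2 and Bad. They correlated at -0.79 between Mcl1 and Bcl2l11 and at -0.71 between Bcl2l11 and Bak1, and every other pair was closer to 0. Of the 2 siCtrl libraries, replicate 1 was higher in Bcl2l1 and Bad, and replicate 2 in Tnfsf10 and Bcl2. The mean size of the log2 deviation over the 10 members was 0.11 in each siCtrl library and 0.05 to 0.09 in the others.

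Other genes of the pathway were read from 3 lists. Of 17 further BCL2 family genes, 11 were tested. With the Arid1a siRNAs 0 rose and 3 fell without EGF, and 1 rose and 3 fell with EGF. With EGF 2 rose and 1 fell after Arid1a siRNAs, and 2 rose and 2 fell after control siRNA. In these 4 comparisons 18.8%, 23.7%, 13% and 16.8% of all genes rose, and 20.1%, 23.2%, 10.4% and 18.8% fell. The median log2 changes were -0.25, -0.18, -0.01 and 0.08, against -0.01, 0.00, -0.01 and -0.03 over all genes. Bok, an effector-like member, moved in all 4: it averaged 148 ± 10.8 CPM in siArid1a_EGF, 107 ± 4.73 in siArid1a, 231 ± 6.32 in siCtrl_EGF and 163 ± 5.47 in siCtrl (SD). That is a fall of 1.51-fold with Arid1a siRNAs in vehicle (log2 -0.60 ± 0.07) and 1.56-fold with EGF (log2 -0.64 ± 0.06). EGF raised Bok 1.38-fold with Arid1a siRNAs (log2 0.46 ± 0.06) and 1.42-fold with control siRNA (log2 0.51 ± 0.07), and the largest edgeR adjusted p of the 4 was 8.08e-05. So Bok fell and Bak1 rose with the siRNAs, while Bax, the third effector, changed by -0.17 and -0.06 and passed neither test.

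Bnip3l, a mitophagy receptor gene, fell with EGF (log2 -0.28 ± 0.06 with Arid1a siRNAs, -0.45 ± 0.07 with control siRNA) and with the Arid1a siRNAs in vehicle (log2 -0.25 ± 0.07, edgeR adjusted p = 0.00808), which no longer passed once siCtrl replicate 1 was left out (-0.21, edgeR adjusted p = 0.0675). Bbc3, which encodes the BH3-only protein PUMA, rose with the Arid1a siRNAs in the presence of EGF (log2 0.42 ± 0.10, edgeR adjusted p = 0.00253) and with EGF after them (log2 0.33 ± 0.10, edgeR adjusted p = 0.0260). The second call was lost without siArid1a replicate 1 (0.0545) or 2 (0.0996) or siArid1a_EGF replicate 2 (0.110). It was also lost in the fit of only the groups compared with a replicate block (edgeR adjusted p = 0.0766). Bnip3 fell with the Arid1a siRNAs in vehicle (log2 -0.58 ± 0.21, edgeR adjusted p = 0.0381), which shrank to -0.23 without siCtrl replicate 2 (edgeR adjusted p = 0.432). It also missed the threshold when siArid1a replicate 1 (-0.45, edgeR adjusted p = 0.144), siArid1a replicate 2 (0.0871) or siArid1a_EGF replicate 3 (0.0624) was left out, and in the fit of only the groups compared (0.0568). The BH3-only gene Hrk rests on 8 to 12 reads in siCtrl_EGF libraries and 3 to 4 in siCtrl libraries, and EGF with control siRNA gave a log2 change of 1.71 ± 0.48 (edgeR adjusted p = 0.0124). Of the 11 fits that each left out 1 library, only 6 tested Hrk. Its call was lost without siCtrl replicate 1 (log2 1.65). DESeq2 did not call it either (log2 1.75, DESeq2 adjusted p = 0.0967).

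In the death receptor list, 15 of 19 genes were tested. With Arid1a siRNAs 2 rose and 4 fell without EGF, and 4 rose and 5 fell with EGF. With EGF 5 rose and 1 fell after Arid1a siRNAs, and 7 rose and 3 fell after control siRNA. Of all genes, 18.8%, 23.7%, 13% and 16.8% rose in these comparisons and 20.1%, 23.2%, 10.4% and 18.8% fell. The median log2 changes were -0.03, -0.0041, 0.17 and 0.35, against -0.01, 0.0004, -0.01 and -0.03 over all genes. Casp8, the caspase that TRAIL receptors activate, averaged 15.5 ± 0.40 CPM in siArid1a_EGF, 16.1 ± 0.81 in siArid1a, 24.3 ± 1.08 in siCtrl_EGF and 27.5 ± 1.67 in siCtrl. It fell 1.71-fold with the Arid1a siRNAs in vehicle (log2 -0.78 ± 0.09, edgeR adjusted p = 1.21e-05) and 1.57-fold with EGF (log2 -0.65 ± 0.08, edgeR adjusted p = 1.75e-05). In the same comparisons the ligand and receptor genes Tnfsf10 and Tnfrsf10b rose. The TNF receptor gene Tnfrsf1a rose in all 4 comparisons. Its log2 change with the Arid1a siRNAs was 0.47 ± 0.08 in vehicle and 0.40 ± 0.07 with EGF (adjusted p of 0.000320 and 0.000299 in edgeR). With EGF it was 0.27 ± 0.07 after Arid1a siRNAs and 0.35 ± 0.08 after control siRNA (adjusted p of 0.0109 and 0.00316 in edgeR).

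The 3 receptor genes with the smallest p for EGF, after either siRNA, were Tnfrsf12a, Tnfrsf21 and Tnfrsf1b, and all 3 rose. Tnfrsf12a, the receptor of TWEAK, averaged 81.6 ± 5.27 CPM in siArid1a_EGF, 33.2 ± 1.08 in siArid1a, 71.1 ± 4.85 in siCtrl_EGF and 17.7 ± 1.13 in siCtrl. EGF raised it 2.46-fold with Arid1a siRNAs (log2 1.30 ± 0.07) and 4.0-fold with control siRNA (log2 2.0 ± 0.09), and the siRNAs raised it 1.87-fold without EGF (log2 0.90 ± 0.09). Tnfrsf21 (DR6) rose 1.78-fold and 1.73-fold with EGF after Arid1a and control siRNA, and fell 1.54-fold without EGF and 1.49-fold with EGF under the Arid1a siRNAs. Tnfrsf1b rose 2.23-fold and 2.22-fold with EGF after Arid1a and control siRNA. The edgeR adjusted p was at most 1.15e-05 for each of these changes.

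Among caspase, apoptosome and IAP genes, 19 of 20 were tested. With Arid1a siRNAs 0 rose and 9 fell without EGF, and 1 rose and 6 fell with EGF. With EGF 2 rose and 2 fell after Arid1a siRNAs, and 1 rose and 5 fell after control siRNA. Of all genes, 18.8%, 23.7%, 13% and 16.8% rose in these comparisons and 20.1%, 23.2%, 10.4% and 18.8% fell. The median log2 changes were -0.23, -0.14, -0.02 and -0.07, against -0.01, 0.0004, -0.01 and -0.03 over all genes. Casp9, the caspase of the apoptosome, and Aifm1, a mitochondrial flavoprotein gene, fell by 0.30 ± 0.06 and 0.32 ± 0.07 on the log2 scale without EGF. Aifm1 missed the threshold when siCtrl replicate 1 was left out (-0.24, edgeR adjusted p = 0.0516). With EGF, Aifm1 fell by 0.28 ± 0.07 and Endog, a mitochondrial nuclease gene, rose by 0.67 ± 0.11.

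EGF lowered the executioner caspase gene Casp6 by 0.40 ± 0.08 with Arid1a siRNAs and by 0.58 ± 0.09 with control siRNA on the log2 scale. Casp9 fell by 0.37 ± 0.06 with EGF after control siRNA, while Htra2, a mitochondrial protease gene, rose by 0.45 ± 0.09. After Arid1a siRNAs the changes of Casp9 (log2 -0.19 ± 0.06, edgeR adjusted p = 0.0345) and Htra2 (log2 0.27 ± 0.08, edgeR adjusted p = 0.0223) were called but fragile. The Casp9 call was lost without siArid1a replicate 1 (0.0822) or 3 (0.0789), or siArid1a_EGF replicate 1 (0.0935), 2 (0.0522) or 3 (0.0991). It was also lost with no filter (0.0571) and with the replicate block (0.0605). The fit of only the groups compared lost it without a block (0.0552) and with one (0.167). That of Htra2 was lost without siArid1a replicate 1 (0.0619) or 2 (0.0525) or siArid1a_EGF replicate 2 (0.0802). A replicate block over only the groups compared lost the Htra2 call too (edgeR adjusted p = 0.0610). Nor was Htra2 called by limma on log2(FPKM + 1) or log2(FPKM + 0.1) (limma adjusted p = 0.0505 and 0.0504).

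**Figure D4:**
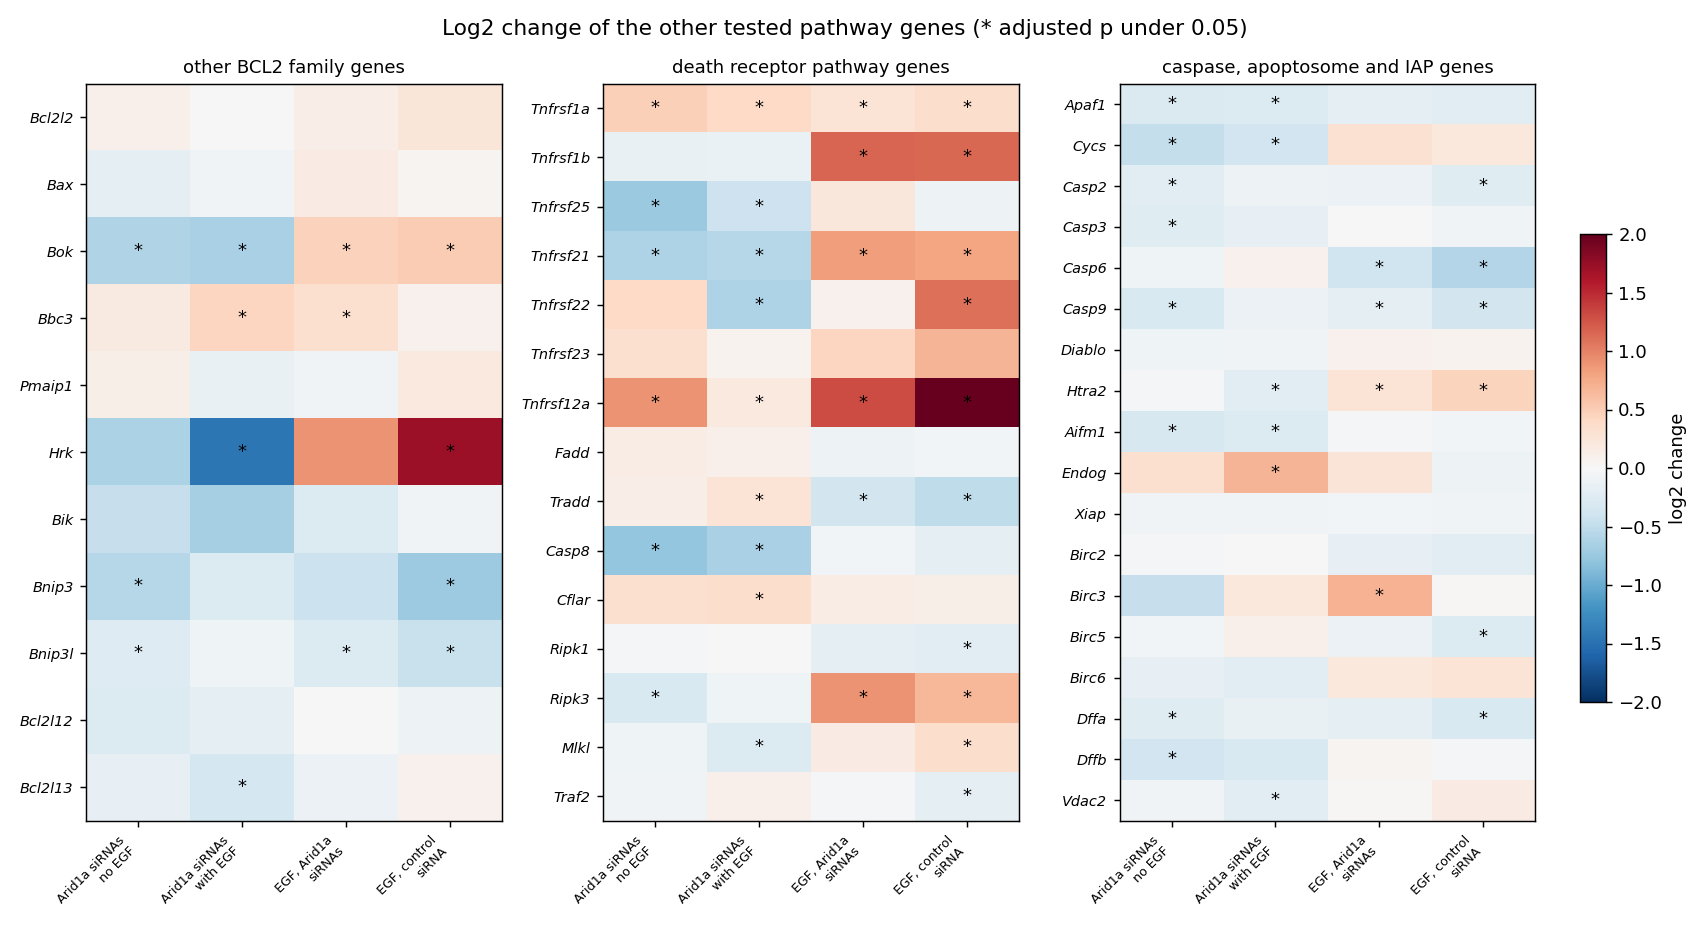
Log2 change (colour, from -2 to 2) of 44 tested genes of the 3 pathway lists (rows) in the 4 comparisons (columns), with a star where the adjusted p was under 0.05. Bok, Tnfrsf1a, Tnfrsf21 and Tnfrsf12a carry a star in all 4 columns, and Casp8 in the 2 columns of Arid1a siRNAs.

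Of 19 tested p53 target genes, a list read because Bbc3 and the TRAIL receptor gene are known p53 targets, 2 rose and 4 fell with Arid1a siRNAs without EGF, and 6 rose and 6 fell with EGF. With EGF 7 rose and 2 fell after Arid1a siRNAs, and 9 rose and 5 fell after control siRNA. The share of all genes that rose was 18.8%, 23.7%, 13% and 16.8%, in the order of these counts. The share that fell was 20.1%, 23.2%, 10.4% and 18.8%. The list went both ways in all 4 comparisons, as all genes did. Whether its counts differ from those shares was not tested.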

How the data were processed

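The deposited tables hold raw read counts per gene symbol, 1 table per library, with no normalisation by the authors. Per the submitters' processing notes, reads were aligned with TopHat2 2.1.1 to mm9 and counted with HTSeq 0.9.1, and Cuffnorm 2.2.1.2 and Cuffdiff 2.2.1.5 were also used. Annotation and counting settings are not given in the sources used here. The TruSeq v2 kit does not mark strand. A deposited table of FPKM values, scaled by the authors with Cuffnorm, supplied levels per length. It has 3 columns for the 2 control libraries, so these were left out, and its other columns show a group without a library.

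Counts were tested with edgeR 4.0.16 (R 4.3.3). The filter filterByExpr, with a minimum count of 10 and a minimum total of 15, passed 13343 of 23284 genes. TMM factors and a quasi-likelihood fit of 4 group means over the 11 libraries followed, with robust estimates (biological coefficient of variation 7.00%). The call rule was a Benjamini-Hochberg adjusted p under 0.05 over all genes tested, two-sided, with no minimum fold. CPM values use the TMM-scaled library sizes. Alternatives were DESeq2 1.42.0, RLE factors, no filter, a replicate block, the compared groups alone, each library left out, and limma 3.58.1 on log2(FPKM + 1) and log2(FPKM + 0.1) of genes with a mean FPKM of at least 1. Members and gene lists were chosen with earlier results of these data known. All members are named, as are up to 3 called genes with the smallest p per pathway list and comparison, except 1 gene that is not reported here.

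Replicate numbers come from the labels. Between siArid1a_EGF and siCtrl_EGF, deviations of libraries of the same number correlated weakly (r = 0.14, 0.30 and 0.13 across genes). In each other pair of groups at least 1 same-number correlation was under 0.1. Those values ran from -0.38 (siCtrl 2 with siCtrl_EGF 2) to 0.32 (siCtrl 2 with siArid1a 2). They do not establish a pairing, and the main tests used none. No 2 libraries of a group were copies (chi-square per degree of freedom 1.59 to 11.5). Promoter windows are RefSeq sequences of GRCm38.p6 and were used apart from the mm9 counts.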

Additional observations from a re-analysis of the deposited data

Results flagged for a closer look

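The EGF responses under the Arid1a siRNAs and under the control siRNA were compared by an interaction test in edgeR, and 1 of the 10 genes and 1 gene of the 3 pathway lists passed it. For Bcl2l11 the log2 difference was 0.54 (edgeR adjusted p = 0.0241): EGF lowered it in both settings, by 0.45 with Arid1a siRNAs and by 0.99 with control siRNA on the log2 scale. This call was lost in 7 of the 11 fits that each left out 1 library (log2 0.50 to 0.57) and with the replicate block (log2 0.52, edgeR adjusted p = 0.0974). For the TWEAK receptor gene Tnfrsf12a the difference was -0.70 (edgeR adjusted p = 0.00902): EGF raised it by 1.30 with Arid1a siRNAs and by 2.0 with control siRNA.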

How the results depend on the processing

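Of the 23 calls on members, 17 kept their call in every alternative run and 6 lost it at least once. Of 39 calls on other genes, 32 kept theirs. These other genes were picked by the naming rule, except for Arid1a, the siRNA target, which was added. The replicate block changed no call on a member in the comparison of siArid1a_EGF with siCtrl_EGF. With the block, which rests on replicate numbers only, the interaction called 56 genes in place of 126 and 0 members (Bcl2l11 0.52, edgeR adjusted p = 0.0974). Under the Arid1a siRNAs without EGF, Bad missed the threshold with the block (0.29, edgeR adjusted p = 0.0772). A block over the 2 compared groups, chosen after seeing the data, called 1932 genes for EGF with Arid1a siRNAs in place of 3119. Leaving out each library gave 55 to 153 genes and 0 to 1 members for the interaction. Some changes close to 0 turned sign, none of them called. These were the Bak1 interaction (log2 -0.013 with RLE factors and with DESeq2, -0.020 without a filter), Mcl1 under Arid1a siRNAs without EGF (-0.0042 with the block) and Bmf for EGF with Arid1a siRNAs (0.0025 with the block, 0.0018 with the block over 2 groups). With each library left out, the interaction ranged from -0.23 to 0.18 for Tnfsf10, -0.093 to 0.19 for Bcl2, -0.37 to 0.0097 for Bcl2l1 and -0.038 to 0.046 for Bak1. The change for EGF with control siRNA ranged from -0.35 to 0.070 for Tnfsf10. For EGF with Arid1a siRNAs it ranged from -0.029 to 0.13 for Bcl2l1, -0.080 to 0.041 for Bmf and -0.085 to 0.031 for Bad. For the Arid1a siRNAs it ranged from -0.0056 to 0.042 for Mcl1 without EGF and from -0.077 to 0.035 for Bmf with EGF. The cause of these shifts was not tested. The siCtrl group has 2 libraries, so a fit without 1 of them leaves a single library there. Calls for EGF with Arid1a siRNAs, which uses no siCtrl library, were lost as well. With single libraries left out, Casp9 lost its call there in 5 of 11 fits and Tnfrsf10b in 4. The 35 to 90 reads of Tnfrsf10b limit its precision.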
